A study of Rattus norvegicus with 32 samples.

Results

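A set of 10 transcription factors known from medium spiny neurons was followed through the whole dataset: Bcl11b, Foxp1, Foxp2, Ebf1, Isl1, Meis2, Rarb, Zfp503, Six3 and Sp9. They were taken by gene symbol from a table of 34322 symbols, all 10 were found, and all 10 were among the 17059 genes with enough counts to test. The samples were polyA-selected RNA from the shell of the rat nucleus accumbens, sequenced as 32 libraries in 4 groups of 8. Every rat had gone through a shock-based fear conditioning protocol, so no group was without shock. In the CBD anxiety cue group the shock had been paired with a lemon odor, and cannabidiol (CBD, a plant cannabinoid) preceded the anxiety tests held with that cue. The vehicle anxiety cue group had the same odor and no CBD. The CBD neutral cue and vehicle neutral cue groups had a neutral cue in place of the odor. All libraries carry the genotype label WT and the tissue label Brain, and dose, strain, sex and age are not given in the sources used here.

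Medium spiny neurons are the GABAergic projection neurons that make up most of the striatum, including the accumbens shell. They fall into a direct-pathway class, which carries the dopamine receptor Drd1 and the peptide gene Tac1, and an indirect-pathway class with Drd2, Adora2a and Penk. Their identity is set in the lateral ganglionic eminence of the embryo, and several of the factors stay on in adult neurons. In mice, Bcl11b (a zinc finger protein also called Ctip2), Foxp1 (a forkhead repressor) and Meis2 (a homeodomain cofactor) are found across both classes. Rarb is a nuclear receptor for retinoic acid, and Zfp503 (Nolz1) is a zinc finger protein of striatal progenitors. Foxp2, Ebf1 and Isl1 are tied to the direct pathway in mice, and Isl1 also marks cholinergic interneurons. Six3 and Sp9 are needed in mice for neurons of the indirect pathway.

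Promoter sequences are shown for 4 of the factors, picked for how the genes varied over libraries: Foxp1 and Rarb, which varied together, Six3 from a looser set, and Ebf1, which followed none of the others. Each covers 250 bases before to 50 bases after the annotated RefSeq start in the rat assembly GRCr8 and runs 5′ to 3′ on the gene's own strand. Capitals mark a motif match.
Foxp1, chr4:133353231-133353530, minus strand: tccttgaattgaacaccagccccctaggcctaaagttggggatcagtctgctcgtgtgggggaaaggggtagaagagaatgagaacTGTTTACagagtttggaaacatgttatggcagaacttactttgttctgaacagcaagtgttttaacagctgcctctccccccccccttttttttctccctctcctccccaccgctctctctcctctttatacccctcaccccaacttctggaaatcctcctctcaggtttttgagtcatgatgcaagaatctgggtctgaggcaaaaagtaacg
Rarb, chr15:11336142-11336441, plus strand: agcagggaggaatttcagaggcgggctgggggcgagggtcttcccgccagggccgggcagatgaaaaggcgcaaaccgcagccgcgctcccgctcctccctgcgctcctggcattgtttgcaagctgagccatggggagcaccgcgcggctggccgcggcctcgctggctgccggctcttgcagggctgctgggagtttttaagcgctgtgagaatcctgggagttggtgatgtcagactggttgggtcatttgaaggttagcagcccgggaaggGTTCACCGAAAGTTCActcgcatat
Six3, chr6:14796207-14796506, minus strand: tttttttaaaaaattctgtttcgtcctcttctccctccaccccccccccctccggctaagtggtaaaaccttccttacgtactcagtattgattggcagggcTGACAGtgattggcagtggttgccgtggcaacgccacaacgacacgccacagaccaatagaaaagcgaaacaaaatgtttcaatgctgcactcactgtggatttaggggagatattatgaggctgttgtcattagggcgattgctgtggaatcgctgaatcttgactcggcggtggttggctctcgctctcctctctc
Ebf1, chr10:29601671-29601970, plus strand: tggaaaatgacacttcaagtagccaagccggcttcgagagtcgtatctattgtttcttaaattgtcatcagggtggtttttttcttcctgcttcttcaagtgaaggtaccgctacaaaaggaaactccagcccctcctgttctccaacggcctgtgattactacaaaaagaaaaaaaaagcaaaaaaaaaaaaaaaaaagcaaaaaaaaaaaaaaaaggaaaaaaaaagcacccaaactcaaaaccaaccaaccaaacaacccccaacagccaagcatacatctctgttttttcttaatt
The capitals mark a forkhead core (TGTTTAC) in Foxp1, at position -164 from the start. In Rarb they mark a retinoic acid direct repeat, a pair of GTTCA copies with any 6 bases between them, at position 26, and in Six3 a MEIS core (TGACAG), at position -148. Both strands of the promoters of 7 of the 10 factors were searched, since Bcl11b, Foxp2 and Meis2 had no entry. Of 33469 rat promoters of the same length, 0.418% held the direct repeat, 3.78% the forkhead core and 19% the MEIS core. An EBF pattern (CCCNNGGGA) was in 0 of the 7 and in 5.91% of all promoters. A GC box (GGGCGG), the kind of site that Sp proteins bind, was found in Zfp503 alone among the 7, at position -76, and in 33.1% of all promoters. The Ebf1 promoter had 37% G and C, against a median of 51.7% over all promoters, with an unbroken run of 18 A. These matches describe letters and not bound sites.

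Total counts ran between 11.7 M and 24.0 M per library. Levels are in CPM, the counts scaled by the library's total, and they are not corrected for gene length, so levels are compared between libraries and not between genes. All 19 striatal output genes examined, Drd1, Drd2, Adora2a, Penk and Tac1 among them, were detected in all 32 libraries. Drd1 reached a median of 307 CPM over libraries (range 57.3 to 460) and Drd2 167 CPM (range 42.3 to 258). In 6 libraries Slc17a6, the vesicular glutamate transporter of septal and thalamic neurons, was at 20 CPM or more, against a median of 4.68 CPM over all libraries. These were replicates 2 and 7 of the CBD anxiety cue group, replicate 5 of the vehicle anxiety cue group and replicates 4, 7 and 8 of the vehicle neutral cue group. The 7 septal and pallidal markers, none of them at 0 in any library, summed to between 219 and 375 CPM in these 6 libraries and to between 49.1 and 124 CPM in the other 26. Slc17a6 is itself among these 7, so its part of the difference was fixed by the choice of libraries. The 10 oligodendrocyte markers summed to between 9867 and 12536 CPM in the 6 and between 3814 and 9901 CPM in the 26. A further library, CBD neutral cue replicate 6, held 877 CPM of the cortical transporter Slc17a7, where the median of its group was 4.36 CPM.

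Bcl11b, Foxp1, Meis2 and Rarb had their 6 lowest values in exactly those 6 libraries. Bcl11b ran between 90.01 and 158 CPM there and between 195 and 326 CPM in the other 26 libraries. Foxp1 ran between 50.9 and 97.7 CPM in the 6 and between 114 and 235 CPM in the 26. For Meis2 the ranges were 86.2 to 259 CPM and 285 to 412 CPM, and for Rarb they were 32.1 to 73.0 CPM and 79.7 to 185 CPM. None of these ranges overlapped. The exact match rests on the cut-off of 20 CPM of Slc17a6, a limit chosen with earlier results of these data known. CBD anxiety cue replicate 7 only just passed it. CBD neutral cue replicate 6 came next in Slc17a6, at 16.8 CPM. Counted from the lowest library, it ranked 19 for Bcl11b, 14 for Foxp1, 10 for Meis2 and 13 for Rarb. The share of all genes tested that separated the 6 libraries in this way is not given here. The separation is therefore not shown to be particular to these factors. Foxp2, Zfp503, Six3 and Sp9 had 5 of their 6 lowest values in the same libraries, with overlap from 1 to 3 of the 26. Zfp503, for example, ran between 14.3 and 34.3 CPM in the 6 and between 28.6 and 61.5 CPM in the 26. Isl1 had 4 of its 6 lowest values there. Ebf1 had 0 of its 6 lowest there, at 6.79 to 10.5 CPM in the 6 and 2.51 to 13.1 CPM in the 26. The striatal output genes moved the same way, summing to between 2147 and 4613 CPM in the 6 and between 7076 and 12372 CPM in the 26. In bulk tissue, fewer cells of a type and less RNA per cell cannot be told apart.

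**Figure D1:**
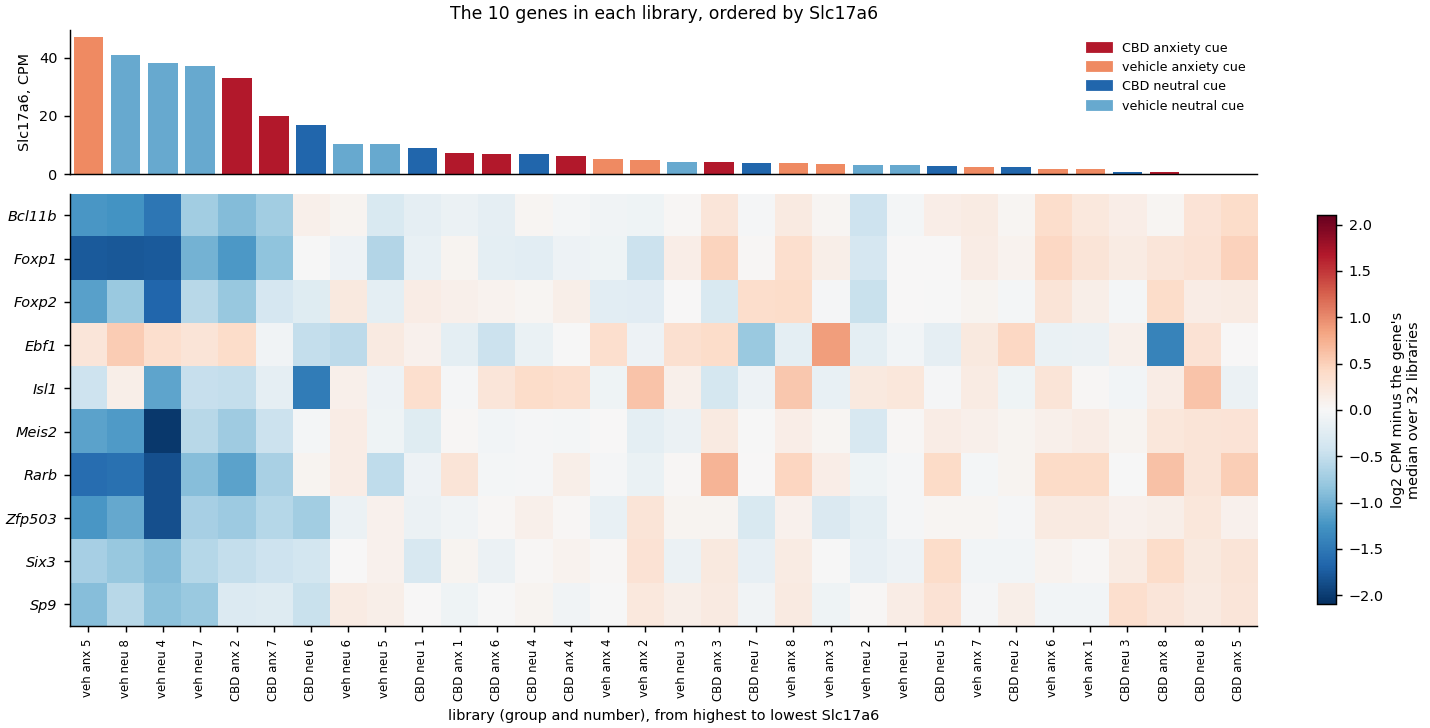
Upper panel, Slc17a6 in CPM for each of the 32 libraries, coloured by group and ordered from highest to lowest; lower panel, log2 CPM of the 10 factors minus each gene's median over the 32 libraries. The 6 libraries at the left, at 20 CPM or more of Slc17a6, are the lowest for Bcl11b, Foxp1, Meis2 and Rarb, while Ebf1 does not follow them.

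The spread over all 32 libraries was widest for Rarb, with a 5.77-fold ratio of the highest to the lowest library, and narrowest for Sp9, at 2.31-fold. Vehicle neutral cue replicate 4 was the lowest library for 7 factors: Bcl11b, Foxp1, Foxp2, Meis2, Rarb, Zfp503 and Six3. At the other end, CBD anxiety cue replicate 5 was the highest for Bcl11b, Foxp1 and Meis2. Once the 6 libraries were set aside, the SD of log2 CPM was 0.15 for Meis2, against 0.50 over all 32 libraries, and 0.28 for Foxp1, against 0.64. For Ebf1 it was 0.45 in the 26 libraries and 0.43 in all 32. Ebf1 and Isl1 were also the factors with the fewest reads, 34 to 278 counts for Ebf1 and 91 to 433 for Isl1, so counting error weighs more on them than on Meis2, at 1766 to 9896 counts.

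Bcl11b had its lowest, median and highest library at 141, 244 and 326 CPM in the CBD anxiety cue group, and at 112, 274 and 325 CPM in the vehicle anxiety cue group. With the neutral cue they were 231, 264 and 302 CPM under CBD and 90.01, 201 and 263 CPM under vehicle. The CBD neutral cue group had the narrowest range, and every pair of groups overlapped. Foxp1 showed a like order, with 76.9, 170 and 235 CPM (CBD anxiety cue), 52.0, 188 and 228 CPM (vehicle anxiety cue), 149, 172 and 205 CPM (CBD neutral cue) and 50.9, 127 and 189 CPM (vehicle neutral cue). Its lowest median was again that of the vehicle neutral cue group. Foxp2 had 43.2, 78.1 and 91.9 CPM in CBD anxiety cue, 33.9, 73.3 and 92.3 CPM in vehicle anxiety cue, 56.9, 73.0 and 93.9 CPM in CBD neutral cue and 23.2, 59.2 and 80.5 CPM in vehicle neutral cue libraries.

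Meis2 averaged 338 ± 69.0 CPM in CBD anxiety cue, 332 ± 72.6 CPM in vehicle anxiety cue, 351 ± 32.96 CPM in CBD neutral cue and 268 ± 102 CPM in vehicle neutral cue libraries (SD, n = 8 each). Its 32 libraries lay between 86.2 and 412 CPM. Rarb averaged 128 ± 46.2 CPM in CBD anxiety cue, 118 ± 37.3 CPM in vehicle anxiety cue, 121 ± 13.5 CPM in CBD neutral cue and 84.9 ± 36.4 CPM in vehicle neutral cue libraries (SD, n = 8 each). The first 3 of these means stood within 1 SD of each other. Zfp503 averaged 47.3 ± 9.19 CPM in CBD anxiety cue, 48.8 ± 12.4 CPM in vehicle anxiety cue, 48.3 ± 9.51 CPM in CBD neutral cue and 40.1 ± 14.7 CPM in vehicle neutral cue libraries (SD, n = 8 each). The lowest mean was again that of the vehicle neutral cue group, and it was so for the indirect-pathway factors too. Six3 averaged 57.7 ± 11.0 CPM in CBD anxiety cue, 56.7 ± 9.70 CPM in vehicle anxiety cue, 56.4 ± 10.4 CPM in CBD neutral cue and 47.1 ± 11.3 CPM in vehicle neutral cue libraries (SD, n = 8 each). Sp9 averaged 27.1 ± 3.47 CPM in CBD anxiety cue, 25.7 ± 4.95 CPM in vehicle anxiety cue, 28.2 ± 4.84 CPM in CBD neutral cue and 24.5 ± 6.82 CPM in vehicle neutral cue libraries (SD, n = 8 each). Sp9 had another order by its medians, which were 26.5 CPM in CBD anxiety cue, 25.7 CPM in vehicle anxiety cue, 28.6 CPM in CBD neutral cue and 28.9 CPM in vehicle neutral cue libraries.

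The remaining direct-pathway factors had other orders. Isl1 averaged 15.4 ± 3.16 CPM in CBD anxiety cue, 17.4 ± 4.17 CPM in vehicle anxiety cue, 16.2 ± 5.53 CPM in CBD neutral cue and 15.2 ± 3.97 CPM in vehicle neutral cue libraries (SD, n = 8 each). The value of 5.22 CPM in CBD neutral cue replicate 6, the library with 877 CPM of Slc17a7, was its lowest of all 32. Ebf1 averaged 6.66 ± 2.22 CPM in CBD anxiety cue, 7.98 ± 2.37 CPM in vehicle anxiety cue, 6.78 ± 1.86 CPM in CBD neutral cue and 7.90 ± 1.89 CPM in vehicle neutral cue libraries (SD, n = 8 each). The vehicle neutral cue mean was the lowest of the 4 groups for the other 9 factors, but not for Ebf1. By medians Isl1 was instead highest in that group, at 16.64 CPM. Its medians were 14.83 CPM in CBD anxiety cue, 16.55 CPM in vehicle anxiety cue and 15.13 CPM in CBD neutral cue libraries. Leaving out the 6 libraries high in Slc17a6 kept 5 vehicle neutral cue and 8 CBD neutral cue libraries. The vehicle neutral cue mean was then still the lowest for Bcl11b, Foxp1, Foxp2, Meis2, Rarb and Six3. It was not for Isl1, Zfp503 or Sp9, and for Sp9 it was the highest, at 29.4 CPM. Sp9 then averaged 28.5 CPM in CBD anxiety cue, 27.2 CPM in vehicle anxiety cue and 28.2 CPM in CBD neutral cue libraries. For all 10 factors, every pair of groups had overlapping libraries, and no pair of neighbouring group means differed by a test past the threshold.

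**Figure D2:**
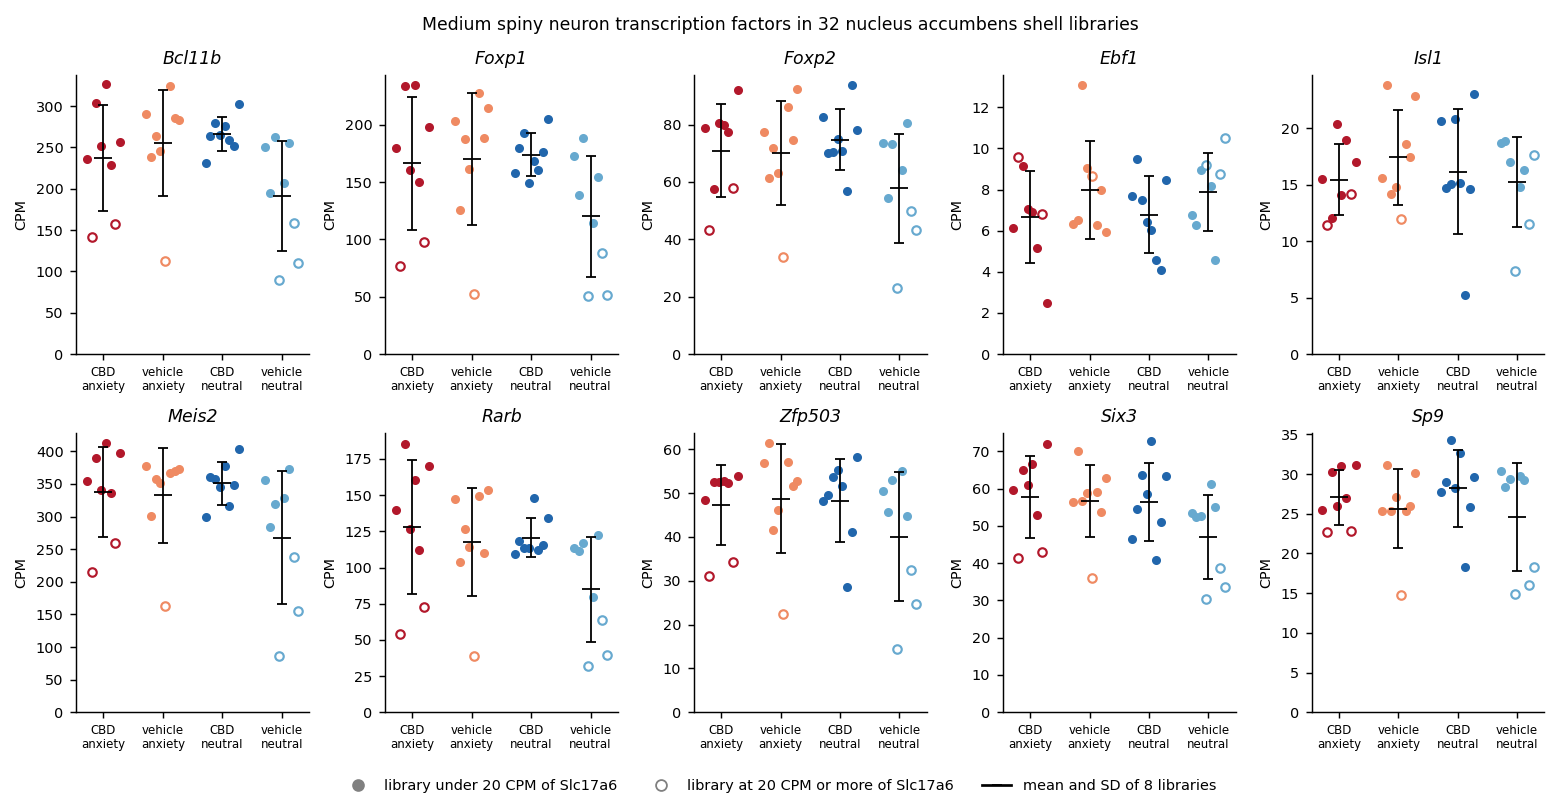
CPM of each factor (vertical axis, from 0) in the 8 libraries of each group, with the group mean and SD; open circles are the 6 libraries at 20 CPM or more of Slc17a6. The groups overlap in every panel, and for Bcl11b, Foxp1, Meis2 and Rarb the open circles are the lowest points of the groups that hold them.

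The odor cue in the absence of drug was examined in vehicle-treated rats, as anxiety cue against neutral cue. All 10 factors had a log2 fold change above 0, between 0.041 (Ebf1) and 0.53 (Foxp1), with a median of 0.30, where 50.1% of the 17059 genes tested lay above 0 and their median was 0.00037. The factors share the same libraries, so their signs are not independent, here and in the comparisons below. None of the 10 passed the threshold, and neither did any other gene (0% of genes tested; edgeR quasi-likelihood test, Benjamini-Hochberg adjusted p under 0.05, likewise 0 by DESeq2). At an unadjusted p under 0.05 there were 2175 genes, 12.7% of those tested, and 1 of the 10 factors. Leaving out 1 library at a time moved these counts: 4326 genes and 7 factors without vehicle anxiety cue replicate 5, 5 factors without vehicle neutral cue replicate 6, and 1255 and 1341 genes without replicates 4 and 8 of the vehicle neutral cue group, with 0 to 7 factors over all 32 such fits. The 1 factor in the fit of all libraries was Bcl11b, at a log2 fold change of 0.44 ± 0.20 (SE) with an adjusted p of 0.38. The other 9 had adjusted p-values up to 0.93, and their 95% intervals included 0. For Foxp1 the interval ran between -0.018 and 1.07, and for Rarb, at 0.50, between -0.044 and 1.04. Leaving out the 6 libraries high in Slc17a6 took 1 library from the anxiety cue arm and 3 from the neutral cue arm. The median was then 0.13, Sp9 changed sign, and 0 factors passed where 0.11% of genes did.

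CBD was compared with vehicle among neutral cue libraries, and this comparison shares its vehicle libraries with the one above. Log2 fold changes lay between -0.18 (Ebf1) and 0.56 (Foxp1), 9 of 10 above 0, with a median of 0.34. Over all genes tested, 50.9% lay above 0, and the median was 0.0055. No factor passed the threshold in edgeR or in DESeq2. The background was 0% of genes by edgeR and 382 genes (1.32% of those DESeq2 fitted) by DESeq2. At an unadjusted p under 0.05, edgeR gave 22.6% of genes and 2 of the 10 factors. Single libraries moved these counts too, with 1 to 6 factors over the 32 fits: 4260 genes and 6 factors without vehicle anxiety cue replicate 5, 6 factors without vehicle neutral cue replicate 6, and 2398 genes and 1 factor without vehicle neutral cue replicate 4. In the fit of all libraries the 2 factors were Bcl11b, at 0.51 ± 0.20 (SE, adjusted p = 0.16), and Foxp1, at 0.56 ± 0.27 (SE, adjusted p = 0.21). Rarb, Meis2 and Foxp2 followed at 0.53, 0.42 and 0.40, with adjusted p-values of 0.23, 0.22 and 0.22. Of the 6 libraries high in Slc17a6, 3 were in the vehicle arm and 0 in the CBD arm. With all 6 left out the median was 0.072, and 0 factors passed where 0.18% of genes did.

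Among anxiety cue libraries, CBD against vehicle gave log2 fold changes close to 0. They lay between -0.27 (Ebf1, 95% interval -0.68 to 0.14) and 0.11 (Rarb, 95% interval -0.43 to 0.65). Of the 10 factors 5 were above 0, and the median was -0.018, beside 48.3% and -0.0033 over all genes. No factor and no other gene passed the threshold (0%; edgeR, likewise 0 by DESeq2), and the factors' adjusted p was 0.9999 each. At an unadjusted p under 0.05 there were 270 genes (1.58%) and 0 factors, and 566 genes and 0 factors without vehicle anxiety cue replicate 5. The intervals still allow changes: for Foxp1 a log2 fold change between -0.58 and 0.50, and for Six3, the most tightly measured, between -0.29 and 0.32.

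The cue within CBD libraries, anxiety cue against neutral cue, had a median of -0.070 on the log2 fold change scale, with 2 of 10 factors above 0, Rarb at 0.072 and Six3 at 0.019. The lowest was Bcl11b at -0.18 (95% interval -0.59 to 0.24). Over all genes the median was -0.0035, and 48.8% lay above 0. None of the factors or other genes passed (0%; edgeR, likewise 0 by DESeq2). At an unadjusted p under 0.05 there were 672 genes (3.94%) and 0 factors.

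Whether the CBD effect differed between the cues was tested as an interaction, the CBD effect with the anxiety cue minus that with the neutral cue. All 10 factors were below 0, between -0.62 (Bcl11b) and -0.085 (Ebf1), with a median of -0.37, where 51.2% of all genes were below 0 and their median was -0.0075. The interaction uses the same libraries as the other comparisons, so its sign adds nothing independent to theirs. No factor passed in edgeR or DESeq2, with backgrounds of 0% and of 14 genes (0.0484%). Bcl11b was the 1 factor at an unadjusted p under 0.05, beside 13.8% of genes, at -0.62 ± 0.29 (SE) and an adjusted p of 0.35. Leaving out 1 library at a time gave 0 to 2 factors and 1589 to 3940 genes at that unadjusted p, the highest of both without vehicle anxiety cue replicate 5. Foxp1 stood at -0.60 ± 0.38 (SE, adjusted p = 0.45). Leaving out the 6 libraries gave a median of -0.055, with 0 factors and 0% of genes past the threshold.

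**Figure D3:**
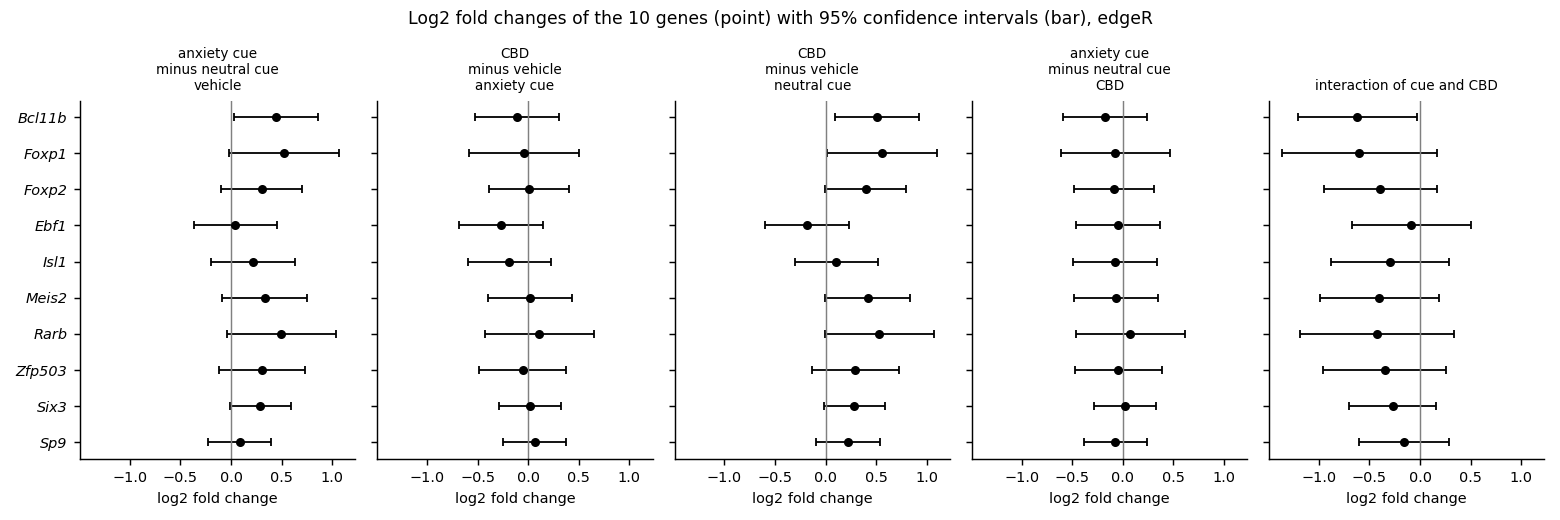
Log2 fold changes of the 10 factors from the fit over all 32 libraries in the 5 comparisons, with unadjusted 95% confidence intervals. Nearly all intervals cross 0; those of Bcl11b in 3 comparisons and of Foxp1 in CBD minus vehicle with the neutral cue do not, and no factor passed after adjustment over 17059 genes.

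Markers of other cells moved beside these values. For the cue under vehicle, all 7 septal and pallidal markers were below 0, with a median log2 fold change of -0.76, and the 5 cholinergic markers had a median of -0.71. For CBD against vehicle with the neutral cue the medians were -0.94 and -0.91, and that of the 10 oligodendrocyte markers was -0.41. In the interaction the septal and pallidal median was 1.31. None of these markers passed the threshold (0% of genes by edgeR in all 3). The summed septal and pallidal level had its lowest, median and highest library at 51.7, 112 and 246 CPM in CBD anxiety cue, 55.4, 71.4 and 293 CPM in vehicle anxiety cue, 49.1, 73.3 and 113 CPM in CBD neutral cue and 65.2, 114 and 375 CPM in vehicle neutral cue libraries. The summed oligodendrocyte level ran between 5142 and 10547 CPM in CBD anxiety cue, 5910 and 12536 CPM in vehicle anxiety cue, 3814 and 8616 CPM in CBD neutral cue and 8061 and 11939 CPM in vehicle neutral cue libraries. None of the septal, cholinergic or oligodendrocyte markers was at 0 in any library.

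A fit with the mean log2 CPM of the oligodendrocyte, septal and pallidal, and cortical markers as 3 covariates gave smaller values in the comparisons that had stood farthest from 0. The factors' median log2 fold change was 0.016 for the cue under vehicle, -0.031 for CBD with the neutral cue and 0.10 for the interaction. Bcl11b was at -0.0032 for CBD with the neutral cue in that fit. Setting aside the 6 libraries, Bcl11b for the cue under vehicle was at 0.24 ± 0.11 (SE, adjusted p = 0.42). In CBD libraries, Rarb for the cue was at 0.30 ± 0.12 (SE) without the 6 and 0.28 ± 0.13 (SE) with the covariates, with adjusted p-values of 0.9998 and 0.9985 (edgeR). No factor passed in any of these fits, and with the covariates no gene did (0%).

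**Figure D4:**
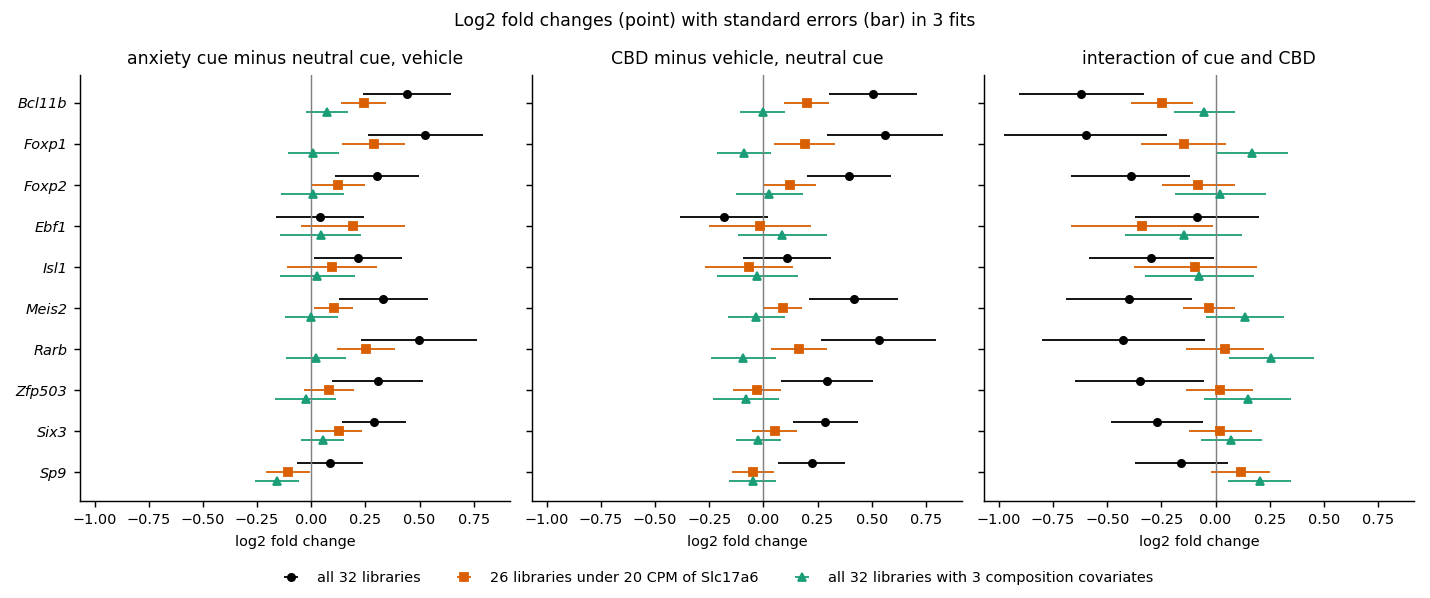
Log2 fold changes with standard errors for 3 comparisons, from all 32 libraries (circles), from the 26 libraries under 20 CPM of Slc17a6 (squares) and from all 32 with 3 covariates for other cell types (triangles). Squares and triangles lie closer to 0 than circles for most factors; Bcl11b in CBD minus vehicle with the neutral cue is at 0.51 as a circle and -0.0032 as a triangle.

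How the factors varied together was examined within the 26 libraries under 20 CPM of Slc17a6, as log2 CPM centred on the group means, over all 45 pairs. Permutation p-values (100000 permutations of libraries within groups, 2-sided) were adjusted over the 45 by Benjamini and Hochberg. Of the pairs, 11 had an adjusted p under 0.05. The share of pairs of all genes tested that would pass is not given here. The count is therefore not shown to be particular to these factors. Other genes, picked as the closest of all, came as near in these 26 libraries: Kcnab1 had r = 0.92 with Bcl11b, and Strip2 had r = 0.93 with Foxp1. Bcl11b, Foxp1, Meis2 and Rarb, a set chosen after the values were seen, had Pearson r between 0.68 and 0.86 and Spearman rho between 0.69 and 0.88 in their 6 pairs, with adjusted permutation p-values of at most 0.0024 for r and 0.0029 for rho. The closest was Bcl11b with Foxp1, at r = 0.86 and rho = 0.88 (permutation p = 1e-05 each, the smallest these permutations can give, adjusted p = 0.00015). Its r was 0.86 as well without the 2 libraries farthest from the median of Bcl11b. Without the 2 farthest libraries the set's 6 pairs kept r between 0.71 and 0.86.

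Six3 with Sp9 formed the closest pair outside that set, at r = 0.83 and rho = 0.88 (permutation p = 1e-05 each, adjusted p = 0.00015), and r = 0.78 without the 2 farthest libraries. Zfp503 followed Sp9 at r = 0.75 and rho = 0.65 (permutation p = 0.00034 and 0.00043, adjusted p = 0.0022 and 0.0024) and Six3 at r = 0.67 and rho = 0.72 (permutation p = 0.00077 and 0.0001, adjusted p = 0.0038 and 0.0009). Without the 2 farthest libraries these were 0.54 and 0.60. Isl1 with Zfp503 had r = 0.74 (permutation p = 0.0024, adjusted p = 0.011) but rho = 0.44 (permutation p = 0.038, adjusted p = 0.12), and r was 0.38 without the 2 libraries farthest from the Isl1 median, so this relation rests on those libraries. Isl1 with Six3 and Sp9 did not pass, at r = 0.36 and 0.55 (adjusted permutation p = 0.36 and 0.15). Without the 2 farthest libraries these r were -0.042 and 0.088. CBD neutral cue replicate 6, with 877 CPM of Slc17a7, is among the 26 libraries. It was the lowest of the 26 for Isl1, Zfp503, Six3 and Sp9, at 5.22, 28.6, 40.7 and 18.3 CPM. For Bcl11b, Foxp1, Meis2 and Rarb it was not the lowest. Its own part in the relations of Isl1, Zfp503, Six3 and Sp9 was not tested. Between the first set and Isl1, Zfp503, Six3 and Sp9, Meis2 with Six3 was the 1 of 16 pairs past the threshold by r, at r = 0.51 and rho = 0.60 (permutation p = 0.011 and 0.0034, adjusted p = 0.046 and 0.015), with r = 0.41 without the 2 farthest. Meis2 with Sp9 passed by rho alone, at rho = 0.55 and r = 0.39 (permutation p = 0.0082 and 0.059, adjusted p = 0.034 and 0.15). Foxp2 and Ebf1 had no pair past the threshold. Foxp2 with Ebf1 was the lowest of the 45, at r = -0.44 and rho = -0.37 (permutation p = 0.040 and 0.077, adjusted p = 0.12 and 0.17), with r = -0.42 without the 2 farthest.

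**Figure D5:**
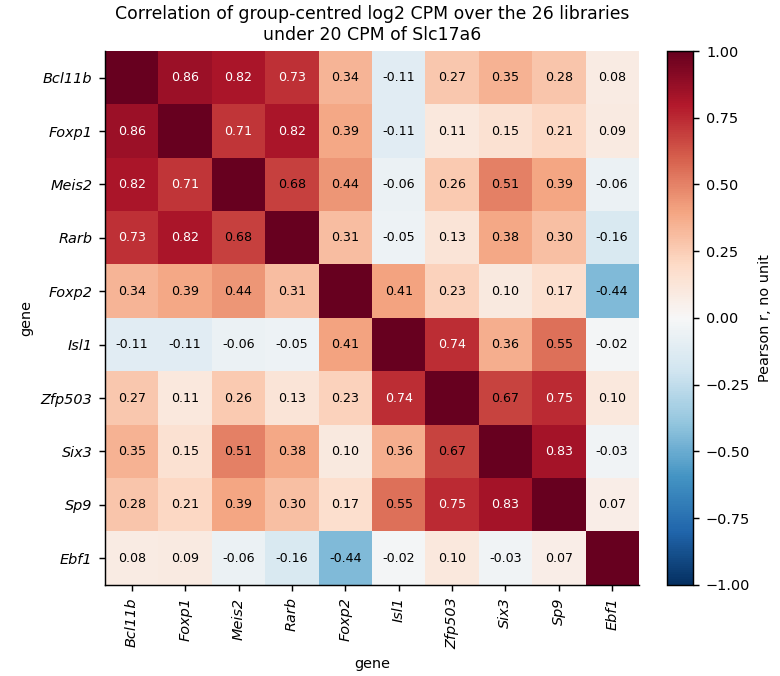
Pearson r between the factors over 26 libraries, from log2 CPM centred on group means (no unit, blue below 0 and red above). Bcl11b, Foxp1, Meis2 and Rarb form one block at 0.68 to 0.86, Zfp503, Six3 and Sp9 stand at 0.67 to 0.83, Isl1 is at 0.36 to 0.74 with these 3, and Ebf1 has r between -0.44 and 0.10 with the others. Without the 2 libraries farthest from the Isl1 median, Isl1 is at -0.042 to 0.38 with the same 3. CBD neutral cue replicate 6 is the lowest of the 26 libraries for Isl1, Zfp503, Six3 and Sp9.

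The factors were also set against the mean log2 CPM of 6 marker lists in the same 26 libraries, 60 relations in all, adjusted together. With the striatal output genes, Rarb had r = 0.81 and rho = 0.78 (permutation p = 3e-05 and 0.0001, adjusted p = 0.0009 and 0.002) and Foxp1 r = 0.76 and rho = 0.79 (permutation p = 9e-05 and 3e-05, adjusted p = 0.0018 and 0.0009). Without the 2 farthest libraries these r were 0.76 and 0.81. Bcl11b also passed, at r = 0.69 and rho = 0.71 (adjusted permutation p = 0.0073 and 0.0042), and so did Meis2, at r = 0.54 and rho = 0.58 (adjusted permutation p = 0.0499 and 0.031). The other 6 factors did not pass with this list by r or by rho. Their r were 0.48 for Six3, 0.47 for Sp9, 0.41 for Foxp2, 0.39 for Zfp503, 0.18 for Isl1 and -0.30 for Ebf1. Rarb, Foxp1, Bcl11b and Meis2 also passed with the septal and pallidal list, in the opposite direction. There Foxp1 had r = -0.76 and rho = -0.80 (permutation p = 3e-05 each, adjusted p = 0.0009 each), with r = -0.75 without the 2 farthest libraries, and Rarb had r = -0.55 and rho = -0.55 (adjusted permutation p = 0.0499 and 0.046). Slc17a6, by which the 26 libraries were chosen, is itself in the septal and pallidal list. The striatal and septal lists were not set against each other, so they do not count as separate results. The share of all genes that would pass with any of the 6 lists is not given here. Isl1 passed with the cholinergic list, whose interneurons carry it in mice, at r = 0.64 and rho = 0.69 (permutation p = 0.00033 and 0.00041, adjusted p = 0.0049 and 0.0042), and r was 0.76 without the 2 farthest. No factor passed by r with the oligodendrocyte, mural and endothelial or neuroblast lists. By rho the first set of 4 passed with the oligodendrocyte list, Bcl11b at rho = -0.59 and r = -0.45 (adjusted permutation p = 0.012 and 0.088).

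The genes most like each factor in pattern were taken as the 3 with the highest Pearson r of group-centred log2 CPM over the 32 libraries, a description that the 6 libraries high in Slc17a6 share in. For Bcl11b these were Kcnab1, a potassium channel subunit (r = 0.99 in 32 libraries and 0.92 in the 26), Ppp3ca, a calcineurin subunit (0.98 and 0.87), and Rbfox1, a splicing factor (0.98 and 0.87). Foxp1 had Strip2 (0.99 and 0.93), Kcnq5 (0.98 and 0.87) and the phosphodiesterase gene Pde7b (0.98 and 0.89). Foxp2 was closest to Drd1 (0.92 and 0.58), then Efnb2 (0.92 and 0.55) and Tmem158 (0.91 and 0.50). In the 26 libraries alone, other genes came closer to Foxp2, the highest at r = 0.78. For Meis2 the 3 were Ccsap, Cdk17 and Camkv, at 0.76 to 0.89 in the 26. Rarb had Kctd1, Cpne5 and Tiam2, at 0.83 to 0.85 in the 26, and Zfp503 had Dtnb, Dclk3 and Efnb2, at 0.65 to 0.73. Six3 had Coro2b, Gnb5 and Jakmip1, all at 0.92 to 0.94 in 32 libraries, and at 0.77, 0.73 and 0.69 in the 26. Sp9 was closest to Dlx5, a homeobox factor of the same lineage (0.93 and 0.79), then Tmem250 and Syndig1l. Isl1 had Sox1 (0.87 and 0.80), Lgr6 and Htr4. Ebf1 had the least close neighbours, Spart at 0.72 in the 32 libraries and 0.72 in the 26, then Plekha1 and Pmfbp1.

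Among other members of the same gene families, 14 had enough counts to test, and 0 of the 14 passed in any comparison. The median log2 fold change of the 14 was -0.064 for the cue under vehicle and -0.085 for CBD with the neutral cue. Bcl11a, the paralog of Bcl11b, averaged 57.3 ± 3.38 CPM in CBD anxiety cue, 55.8 ± 3.28 CPM in vehicle anxiety cue, 57.5 ± 9.63 CPM in CBD neutral cue and 55.5 ± 5.43 CPM in vehicle neutral cue libraries (SD, n = 8 each). These 4 means lay within 1 SD of each other. Foxp4 averaged 35.9 ± 8.05 CPM in CBD anxiety cue, 37.8 ± 7.07 CPM in vehicle anxiety cue, 35.6 ± 4.64 CPM in CBD neutral cue and 38.7 ± 6.07 CPM in vehicle neutral cue libraries (SD, n = 8 each). Meis1, the relative of Meis2, averaged 13.8 ± 2.93 CPM in CBD anxiety cue, 13.4 ± 1.13 CPM in vehicle anxiety cue, 12.7 ± 1.95 CPM in CBD neutral cue and 15.8 ± 4.52 CPM in vehicle neutral cue libraries (SD, n = 8 each), so its highest mean was in the group where that of Meis2 was lowest. Summed over the 14 tested relatives, the level was 340.2 to 373 CPM in the 6 libraries high in Slc17a6 and 263 to 330.1 CPM in the 26 others. The summed level of the 10 factors was lower in the 6, at 359 to 766 CPM in the 6 and 935 to 1385 CPM in the 26. Such sums are carried mostly by their most abundant genes. How many other sets of genes separated the 6 libraries was not counted, so neither separation is shown to be particular.

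Genes of the retinoid pathway, which makes, carries and breaks down the ligand of Rarb, gave 14 tested genes of 15, with 0 past the threshold in each comparison. Their median log2 fold change was 0.097 for the cue under vehicle and 0.14 for CBD with the neutral cue. Rxrg, the retinoid X receptor that pairs with retinoic acid receptors, averaged 62.1 ± 18.1 CPM in CBD anxiety cue, 54.3 ± 16.6 CPM in vehicle anxiety cue, 58.4 ± 10.7 CPM in CBD neutral cue and 44.7 ± 17.2 CPM in vehicle neutral cue libraries (SD, n = 8 each). The lowest group mean was that of the vehicle neutral cue group, as it was for Rarb. Of 14 other transcription factors of the striatal lineage 0 passed, with a median of 0.075 for the cue under vehicle and 0.079 for CBD with the neutral cue. Among them Dlx6, a homeobox factor of the same progenitors, averaged 32.9 ± 5.21 CPM in CBD anxiety cue, 34.2 ± 5.40 CPM in vehicle anxiety cue, 33.1 ± 4.22 CPM in CBD neutral cue and 30.7 ± 5.06 CPM in vehicle neutral cue libraries (SD, n = 8 each). The 19 striatal output genes stood farther from 0 than the 10 factors, with medians of 0.44 for the cue under vehicle, 0.51 for CBD with the neutral cue and -0.53 for the interaction, and 0 of them passed.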

How the data were processed

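The authors deposited whole-number counts of reads per gene for 32 libraries, and the submitters' processing notes name STAR, featureCounts and DESeq2, with no versions. The labels' protocols give polyA selection. No source used here states whether counting used strand, and reads of overlapping or antisense genes cannot be told apart. Groups come from the treatment label, whose "nocue" entries were read as neutral cue from the design text. The labels do not say that libraries came from separate rats, so p-values measure the spread between libraries.

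The test was edgeR 4.0.16 (R 4.3.3), with TMM scaling, filterByExpr by group (17059 genes kept), a quasi-likelihood fit with a mean per group over 32 libraries, and Benjamini-Hochberg adjustment over all genes tested, with a threshold of 0.05. log2 CPM carried a prior count of 2. The 112 pairs of libraries within groups differed by a chi-square of 5.57 or more per degree of freedom, so none were duplicates. The fit was checked on counts simulated gene by gene, without tissue differences shared between genes. Recovery was required for large changes only, so the check does not cover changes as small as those seen here. Alternatives were DESeq2 1.42.0, its size factors, no filter, libraries left out, the groups of the comparison alone, and 3 covariates. Members, lists and limits were chosen with earlier results of these data known. Genes were named by rule: all members, for each member its 3 most correlated genes, and genes drawn from a preset group, not all of which are printed. Promoters come from RefSeq (GRCr8). An item of the family list is not reported here.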

Additional observations from a re-analysis of the deposited data

Results flagged for a closer look

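In 6 of 40 sets of 8 libraries (10 factors in 4 groups), 1 library stood apart from its group by Dixon's test at the 95% level. Chance alone gives about 1 in 20 such sets. The 10 factors share the same libraries, so the 40 sets are not independent and no excess over chance is drawn from this count. Vehicle anxiety cue replicate 5 was far below the next library for 4 factors: Bcl11b at 112 CPM (next 238), Meis2 at 163 CPM (next 300.4), Rarb at 38.7 CPM (next 104) and Sp9 at 14.8 CPM (next 25.3). It is the library with the highest Slc17a6, and its part in these values was not tested. Isl1 was far below the others in CBD neutral cue replicate 6, at 5.22 CPM (next 14.6), the library with 877 CPM of Slc17a7. Ebf1 was far above the others in vehicle anxiety cue replicate 3, at 13.1 CPM (next 9.07).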

How the results depend on the processing

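In every setting tried, the count of factors past the threshold stayed at 0 in the 5 comparisons. Over all genes that count was 0 with edgeR on all 32 libraries, and other settings gave these counts. DESeq2 called 382 genes for CBD with the neutral cue and 14 for the interaction. The fit of only the 2 groups called 4 for CBD with the neutral cue. Without the 6 libraries high in Slc17a6, 19 genes were called for the cue under vehicle and 31 for CBD with the neutral cue. Leaving out 1 library at a time gave 0 to 165 genes for CBD with the neutral cue (68 without vehicle anxiety cue replicate 4, 165 without replicate 5) and 0 to 10 for the interaction (10 without vehicle anxiety cue replicate 5). Of 1940 fold changes of single factors under alternatives, 1848 kept their sign and 92 took the other, none of them past the threshold on either side.

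Log2 fold changes that took the other sign were these. For the cue under vehicle, without the 6 libraries: Sp9 -0.11. For CBD with the anxiety cue, without the 6 libraries: Foxp1 0.045. For CBD with the neutral cue, without the 6 libraries: Isl1 -0.068, Zfp503 -0.031 and Sp9 -0.048. For the cue in CBD libraries, without the 6 libraries: Foxp1 0.14, Foxp2 0.046, Isl1 0.0044, Meis2 0.073, Zfp503 0.10 and Sp9 0.0078. For the interaction, without the 6 libraries: Rarb 0.044, Zfp503 0.019, Six3 0.022 and Sp9 0.12. For the cue under vehicle, with 3 covariates: Zfp503 -0.027 and Sp9 -0.16. For CBD with the anxiety cue, with 3 covariates: Foxp1 0.079 and Zfp503 0.068. For CBD with the neutral cue, with 3 covariates: Bcl11b -0.0032, Foxp1 -0.089, Ebf1 0.088, Isl1 -0.028, Meis2 -0.033, Rarb -0.092, Zfp503 -0.081, Six3 -0.023 and Sp9 -0.049. For the cue in CBD libraries, with 3 covariates: Bcl11b 0.020, Foxp1 0.18, Foxp2 0.029, Meis2 0.14, Zfp503 0.12 and Sp9 0.045. For the interaction, with 3 covariates: Foxp1 0.17, Foxp2 0.023, Meis2 0.14, Rarb 0.26, Zfp503 0.15, Six3 0.073 and Sp9 0.20. Without the library high in Slc17a7, for the cue in CBD libraries: Six3 -0.028.

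Leaving out 1 library at a time, the log2 fold changes that crossed 0 ran over these ranges. For the cue under vehicle: Ebf1 -0.096 to 0.11. For CBD with the anxiety cue: Foxp2 -0.10 to 0.087, Foxp1 -0.18 to 0.071, Zfp503 -0.17 to 0.017, Meis2 -0.089 to 0.094, Six3 -0.062 to 0.077, Rarb -0.027 to 0.22 and Sp9 -0.023 to 0.11. For the cue in CBD libraries: Foxp1 -0.17 to 0.038, Meis2 -0.12 to 0.0099, Zfp503 -0.12 to 0.030, Rarb -0.026 to 0.19, Six3 -0.040 to 0.083, Ebf1 -0.13 to 0.072 and Isl1 -0.21 to 0.019. For the interaction: Ebf1 -0.17 to 0.052. The cause was not tested. Ebf1 had the fewest counts of the factors, 34 to 278 per library, and Meis2, at 1766 to 9896 counts, crossed 0 as well. No paired analysis was possible because the labels give no replicate numbers or animals, and library numbers follow the order of deposition.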
